A study of Homo sapiens with 6 samples.

Results

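The SREBP system is described here by 8 genes: the factors SREBF1 and SREBF2, the escort SCAP, the retention proteins INSIG1 and INSIG2, the proteases MBTPS1 and MBTPS2, and the sterol carrier STARD4. They were taken by symbol from the deposited expression table, which held all 8 among 21429 genes. RNA was sequenced from U251, an established human glioma line, with stable, doxycycline-induced expression of mutant APP (K670N/M671L), and both groups carry that transgene and received doxycycline. The tested cultures were electroporated with an siRNA against RPL13 (siRPL13, 3 libraries) and the controls with a control siRNA (siNC, 3 libraries). All were harvested 72 h after electroporation, with 1 µg/mL doxycycline added when the medium was renewed at 24 h. The RPL13 protein belongs to the large subunit of the ribosome. The cells are a single tumour line with an induced transgene and 1 siRNA condition per target, which limits them as a model of other cells.

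SREBP-1 and SREBP-2, encoded by SREBF1 and SREBF2, are made as membrane proteins of the endoplasmic reticulum and bound there by SCAP. When sterols are plentiful, SCAP is held back by INSIG proteins. When sterols are scarce, it carries the precursors to the Golgi, where the site-1 protease (MBTPS1) and then the site-2 protease (MBTPS2) release a fragment that enters the nucleus and activates genes of cholesterol and fatty acid synthesis and uptake. INSIG1, STARD4 and the SREBF genes themselves are known targets of the released factors, so transcript levels of this system can feed back on themselves. The measurements here are transcript levels only, and neither cleavage nor nuclear protein was measured.

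The 5 windows printed next are the 250 bases before the annotated start of the 4 genes whose level changed most and, for contrast, of INSIG2, the partner of INSIG1 whose level did not pass the test. They come from RefSeq on GRCh38.p14, run 5′ to 3′ on the strand of the gene, and begin with SREBF1 (minus strand, chr17:17836987-17837236) and SREBF2 (plus strand, chr22:41832855-41833104). INSIG1 (plus strand, chr7:155297628-155297877), STARD4 (minus strand, chr5:111512536-111512785) and INSIG2 (plus strand, chr2:118088221-118088470) follow. Capitals mark 4 motifs searched on both strands: TCACNCCAC, the core of the sterol regulatory element with 1 free base; CACGTG, an E-box; CCAAT, which NF-Y binds; and GGGCGG, which Sp1 binds. In INSIG1, a pair of GC boxes overlap by 1 base.
SREBF1: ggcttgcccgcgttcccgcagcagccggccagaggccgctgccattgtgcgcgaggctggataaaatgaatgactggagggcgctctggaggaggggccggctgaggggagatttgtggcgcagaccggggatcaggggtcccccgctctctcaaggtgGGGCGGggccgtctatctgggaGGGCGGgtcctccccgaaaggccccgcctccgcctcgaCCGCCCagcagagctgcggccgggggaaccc
SREBF2: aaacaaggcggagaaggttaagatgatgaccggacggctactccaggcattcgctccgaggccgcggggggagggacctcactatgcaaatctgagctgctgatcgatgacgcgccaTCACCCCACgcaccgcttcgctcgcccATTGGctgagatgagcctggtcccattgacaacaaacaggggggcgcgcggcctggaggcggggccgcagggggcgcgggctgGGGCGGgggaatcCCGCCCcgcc
INSIG1: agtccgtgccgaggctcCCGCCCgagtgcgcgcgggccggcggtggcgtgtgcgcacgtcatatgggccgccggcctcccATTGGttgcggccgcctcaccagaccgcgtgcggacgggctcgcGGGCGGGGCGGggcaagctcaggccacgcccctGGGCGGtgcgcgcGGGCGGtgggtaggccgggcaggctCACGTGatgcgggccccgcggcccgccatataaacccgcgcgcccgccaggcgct
STARD4: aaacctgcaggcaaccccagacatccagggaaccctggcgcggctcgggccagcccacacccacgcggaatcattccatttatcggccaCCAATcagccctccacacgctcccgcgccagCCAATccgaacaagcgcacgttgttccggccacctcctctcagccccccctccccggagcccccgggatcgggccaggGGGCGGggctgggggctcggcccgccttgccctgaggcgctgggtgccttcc
INSIG2: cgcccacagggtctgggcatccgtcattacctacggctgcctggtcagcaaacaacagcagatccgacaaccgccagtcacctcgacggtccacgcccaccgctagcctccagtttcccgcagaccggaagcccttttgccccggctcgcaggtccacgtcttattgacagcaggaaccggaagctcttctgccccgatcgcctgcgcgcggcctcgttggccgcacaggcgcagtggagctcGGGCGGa

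The sterol regulatory element core stood in 1 of the 9 windows that RefSeq gave for the 8 genes, that of SREBF2, at 133 to 125 bases before the start, and in 0.883% of all 35116 windows of this length. It reads TCACCCCAC there, and a CCAAT box on the other strand follows at 106 to 102 bases before the start. CCAAT was also present in the windows of INSIG1 (1 match) and STARD4 (2 matches), and in 32% of all windows. The E-box CACGTG stood in INSIG1, 55 to 50 bases before the start, in SCAP, and in 6.34% of all windows. GC boxes numbered 5 in INSIG1, 3 in SREBF1, 3 in SCAP, 2 in SREBF2, 1 in STARD4 and 1 in INSIG2, against 0 in MBTPS1 and MBTPS2. The 2 windows of INSIG2 overlap and hold the same GC box. Of all windows, 42.6% held at least 1. These are matches of letters in short windows before annotated starts, other starts of these genes were not searched, and the matches were not tested as binding sites.

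Values are regularized-log (rlog) values, a log2 scale that adjusts for library size and shrinks each value towards its gene's mean, which understates differences of genes with few reads. Read depth is unknown and counting intervals are not given; the number of libraries limits the precision. RPL13 stood at 13.03, 13.12 and 14.09 in siRPL13 replicates 1 to 3 and at 14.05, 14.16 and 14.18 in siNC replicates 1 to 3. The library labelled siRPL13 replicate 3 thus had 97.0% of the siNC mean of the targeted transcript on this scale, within the range of the siNC libraries, whereas replicates 1 and 2 had 46.5% and 49.7%. Results are therefore given with all 6 libraries and without the library labelled siRPL13 replicate 3, a fit that rests on 2 siRPL13 libraries. Of 11 glial and glioma markers, 10 were listed and 8 averaged at least 3, among them GFAP, VIM, NES and SOX2, while CHI3L1 and ALDH1L1 stayed below 1. Of the 3 leukocyte and microglial markers listed (of 6), the highest value was 3.67, and the only listed hepatocyte marker, ALB, reached 1.67. Of 4 endothelial markers 3 were listed, with KDR up to 12.06, and all 4 neuronal markers were listed, with SYT1 up to 8.78 and RBFOX3 below 0.3. Without the library labelled siRPL13 replicate 3, limma called 4 of the 15 markers tested: CDH5 (log2 difference -0.46, adjusted p 0.0034), NES (-0.34, adjusted p 0.0023) and VIM (-0.31, adjusted p 0.0091) were lower and KDR (0.21, adjusted p 0.0234) was higher. Over all genes tested in that fit, 10.7% were lower and 8.42% higher. CDH5 stood at 5.84, 5.99 and 6.25 in siRPL13 replicates 1 to 3, against 6.43, 6.41 and 6.30 in siNC, and the groups did not overlap. Nor did they for VIM, NES and GFAP, also lower in siRPL13, against 6.9% of all genes tested. The part of these markers in the results on the SREBP genes was not tested. In a bulk sample, fewer cells of a type and less RNA per cell cannot be told apart.

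The 15327 genes tested were those whose mean rlog reached 3, which included all 8 genes described here. With all 6 libraries 0% passed limma at an adjusted p under 0.05, and none of the 8 did. An unadjusted p under 0.05 was found for 1275 genes, and 0.589 was the smallest adjusted p. Among the 8 genes, SREBF1, SREBF2, INSIG1 and STARD4 were lower at an unadjusted p under 0.05, against 4.4% of all genes tested in that direction. Without the library labelled siRPL13 replicate 3, the same 4 genes were lower and 0 higher at an adjusted p under 0.05, where the background was 10.7% lower and 8.42% higher. In this text, "fell" and "rose" refer to that fit. The median log2 difference over the 8 genes was -0.29 with all 6 libraries and -0.39 without that library, beside -0.00080 and -0.0014 over all genes tested.

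**Figure D1:**
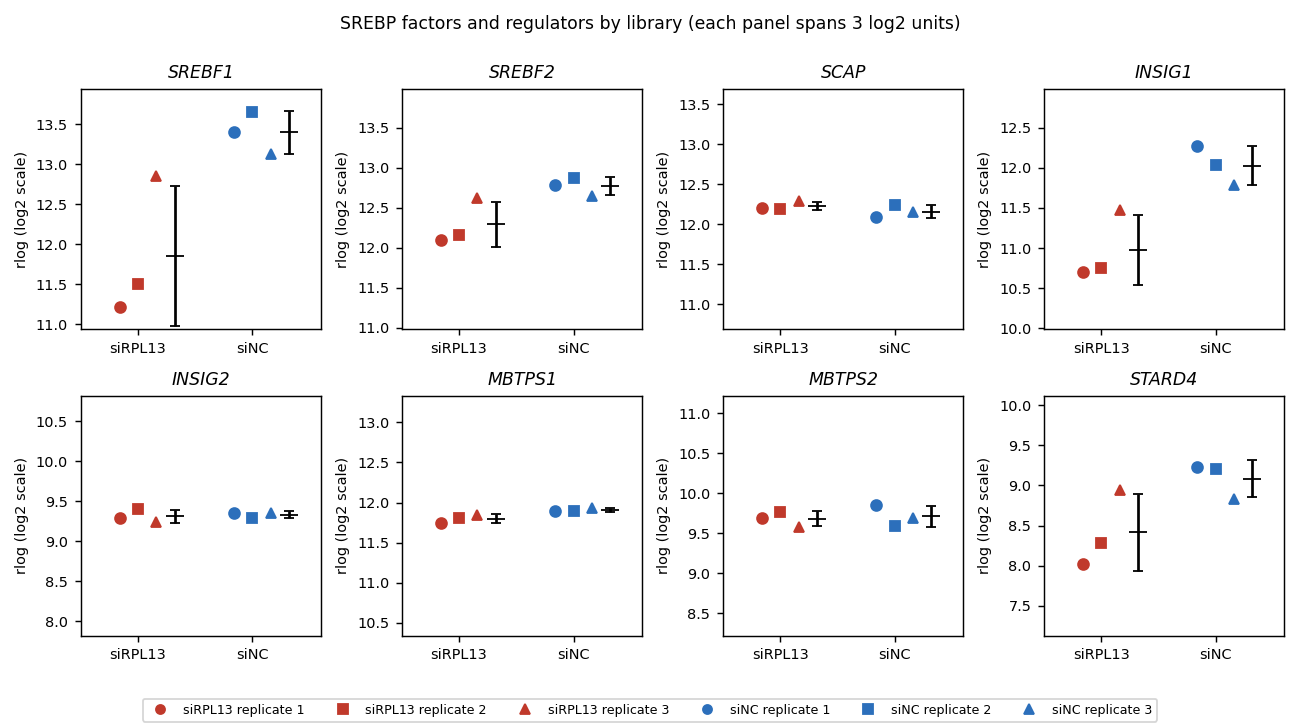
Level of the 8 genes as rlog values (log2 scale, each vertical axis spanning 3 units and not starting at 0), with 1 point per library, siRPL13 in red and siNC in blue, shapes standing for replicate numbers and bars for the mean ± SD of 3 libraries. All siRPL13 points of SREBF1 (11.22, 11.51 and 12.86) lie below its lowest siNC point (13.13), while SCAP, INSIG2, MBTPS1 and MBTPS2 each span less than 0.3 over the 6 libraries.

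SREBF1 (ENSG00000072310, GRCh38 chromosome 17, 17810399 to 17837002, minus strand) encodes SREBP-1, the factor tied most to fatty acid synthesis. Its rlog was 11.22, 11.51 and 12.86 in siRPL13 replicates 1 to 3, against 13.40, 13.66 and 13.13 in siNC replicates 1 to 3. The groups did not overlap: the library labelled siRPL13 replicate 3 was the highest of the siRPL13 libraries and still lay 0.27 below the lowest siNC library. On the rlog scale these libraries held 22.0%, 27.1% and 68.7% of the siNC mean. The siRPL13 mean was 11.86 ± 0.87 and the siNC mean 13.40 ± 0.27 (SD, n = 3 each), a log2 difference of -1.54 ± 0.36 (SE, adjusted p 0.589 by limma). Without the library labelled siRPL13 replicate 3, SREBF1 fell by 2.03 ± 0.13 (SE, adjusted p 2.9e-05 by limma), and 1 gene of 15327, SCD, had a larger fall.

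SREBF2 (ENSG00000198911, chromosome 22, 41833079 to 41907308, plus strand) encodes SREBP-2, the factor tied most to cholesterol synthesis and uptake, and its upstream window holds the sterol regulatory element core shown above. Its rlog was 12.09, 12.16 and 12.62 in siRPL13 replicates 1 to 3, against 12.78, 12.87 and 12.65 in siNC. The groups did not overlap, although the library labelled siRPL13 replicate 3 lay only 0.038 below the lowest siNC library, less than the siNC range of 0.22. The siRPL13 libraries held 62.5%, 65.4% and 89.8% of the siNC mean. The log2 difference was -0.48 ± 0.13 (SE, adjusted p 0.589 by limma) with all 6 libraries, and SREBF2 fell by 0.65 ± 0.06 (SE, adjusted p 0.00032 by limma) without that library.

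The change of SREBF1 was the larger of the pair in each siRPL13 library. The rlog of SREBF1 minus that of SREBF2 was -0.88, -0.64 and 0.24 in siRPL13 replicates 1 to 3, against 0.62, 0.79 and 0.48 in siNC, so that the groups did not overlap. The change of SREBF1 minus that of SREBF2 was -1.06 (log2), with p = 0.1 by a two-sided exact permutation test of 3 against 3 libraries, which is the smallest p that this design allows. Over the 3 pairs of related genes compared in this way the adjusted p was 0.15. Without the library labelled siRPL13 replicate 3 the value was -1.39, with p = 0.2 (exact permutation test), again the smallest possible, and an adjusted p of 0.3.

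SCAP (ENSG00000114650, chromosome 3, 47413694 to 47477126, minus strand), the escort of both factors, did not pass the test. Its rlog was 12.20, 12.19 and 12.29 in siRPL13 replicates 1 to 3, against 12.09, 12.24 and 12.15 in siNC. The groups overlapped, and the highest value was that of the library labelled siRPL13 replicate 3. With all 6 libraries the log2 difference was 0.06 ± 0.06 (SE, adjusted p 0.737 by limma), with a 95% interval of -0.08 to 0.21, and 0.03 ± 0.05 (adjusted p 0.717, interval -0.09 to 0.15) without that library.

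Of the retention proteins, INSIG1 fell and INSIG2 did not pass. INSIG1 (ENSG00000186480, chromosome 7, 155297776 to 155310235, plus strand) had an rlog of 10.70, 10.75 and 11.48 in siRPL13 replicates 1 to 3, against 12.27, 12.04 and 11.79 in siNC. The groups did not overlap, and the library labelled siRPL13 replicate 3 lay 0.31 below the lowest siNC library, where the siNC libraries spanned 0.48. The siRPL13 libraries held 39.5%, 41.1% and 68.2% of the siNC mean. The log2 difference was -1.06 ± 0.20 (SE, adjusted p 0.589 by limma) with all 6 libraries, and INSIG1 fell by 1.31 ± 0.11 (SE, adjusted p 0.00013 by limma) without that library.

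INSIG2 (ENSG00000125629, chromosome 2, 118088452 to 118110997, plus strand), the related retention protein, had an rlog of 9.30, 9.40 and 9.24 in siRPL13 replicates 1 to 3, against 9.35, 9.29 and 9.36 in siNC. The groups overlapped and all 6 libraries lay within 0.16. Its log2 difference was -0.02 ± 0.07 (SE, adjusted p 0.932 by limma, 95% interval -0.18 to 0.14), and 0.01 ± 0.06 (adjusted p 0.897, interval -0.13 to 0.16) without the library labelled siRPL13 replicate 3, so its sign differed between the fits. The rlog of INSIG1 minus that of INSIG2 was 1.40, 1.35 and 2.24 in siRPL13 replicates 1 to 3, against 2.92, 2.76 and 2.43 in siNC. These values did not overlap; the difference of the changes was -1.04 (p = 0.1, the smallest possible, two-sided exact permutation test, adjusted p 0.15 over 3 pairs), and -1.33 (p = 0.2, the smallest possible, exact permutation test) without that library.

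Neither protease passed the test. MBTPS1 (ENSG00000140943, chromosome 16, 84053761 to 84116906, minus strand), which makes the first cut, had an rlog of 11.74, 11.81 and 11.85 in siRPL13 replicates 1 to 3, against 11.89, 11.90 and 11.93 in siNC. All siRPL13 libraries lay below all siNC libraries, the library labelled siRPL13 replicate 3 by 0.044. MBTPS1 had a log2 difference of -0.11 ± 0.06 (SE, adjusted p 0.599 by limma, 95% interval -0.23 to 0.02), and -0.13 ± 0.05 (adjusted p 0.0946, interval -0.24 to -0.02) without that library.

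MBTPS2 (ENSG00000012174, chromosome X, 21839636 to 21885424, plus strand), which makes the second cut within the membrane, had an rlog of 9.69, 9.76 and 9.58 in siRPL13 replicates 1 to 3, against 9.85, 9.59 and 9.69 in siNC. The groups overlapped. The log2 difference was -0.03 ± 0.09 (SE, adjusted p 0.924 by limma, 95% interval -0.22 to 0.17), and 0.02 ± 0.08 (adjusted p 0.880, interval -0.15 to 0.19) without the library labelled siRPL13 replicate 3. The change of MBTPS1 minus that of MBTPS2 was -0.08, with p = 0.7 by the two-sided exact permutation test (adjusted p 0.7 over 3 pairs).

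STARD4 (ENSG00000164211, chromosome 5, 111496033 to 111512590, minus strand) encodes a soluble carrier that moves cholesterol between membranes, the endoplasmic reticulum included. Its rlog was 8.02, 8.28 and 8.94 in siRPL13 replicates 1 to 3, against 9.23, 9.21 and 8.83 in siNC. The groups overlapped, because the library labelled siRPL13 replicate 3 lay 0.12 above siNC replicate 3. The siRPL13 libraries held 47.6%, 57.2% and 90.5% of the siNC mean. The log2 difference was -0.67 ± 0.22 (SE, adjusted p 0.589 by limma) with all 6 libraries, and STARD4 fell by 0.94 ± 0.12 (SE, adjusted p 0.00099 by limma) without that library.

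**Figure D2:**
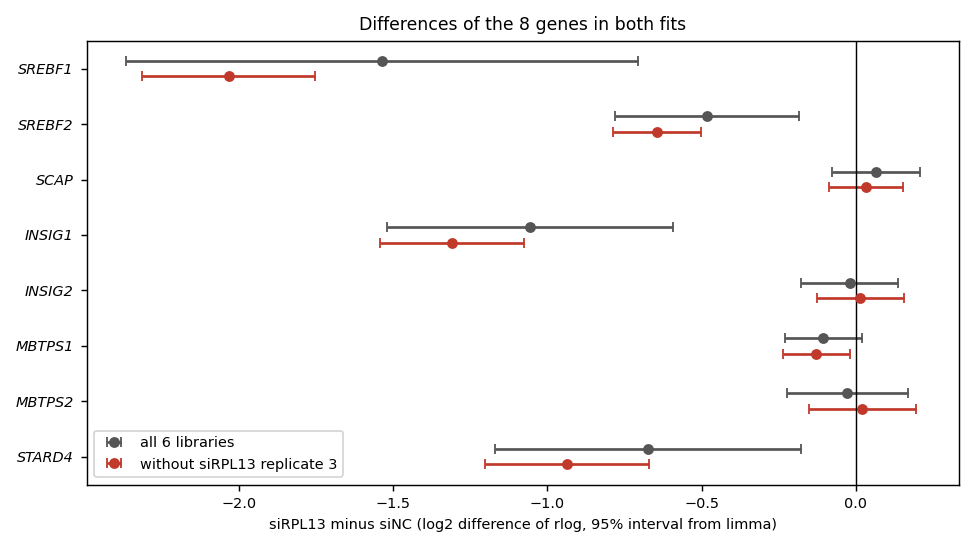
Log2 difference of each gene, siRPL13 minus siNC (horizontal axis), with its 95% interval from limma, in grey for all 6 libraries and in red without the library labelled siRPL13 replicate 3. SREBF1 (-1.54 and -2.03), INSIG1 (-1.06 and -1.31), STARD4 (-0.67 and -0.94) and SREBF2 (-0.48 and -0.65) lie to the left of 0 in both fits, and the intervals of SCAP, INSIG2 and MBTPS2 span 0 in both.

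Across the set, the groups did not overlap and siRPL13 was lower for SREBF1, SREBF2, INSIG1 and MBTPS1, which is 4 of 8 genes, against 6.9% of all genes tested. In those 4 genes the order of the siRPL13 libraries was the same, with replicate 1 lowest, then replicate 2, then the library labelled siRPL13 replicate 3. STARD4 had the same order among siRPL13 libraries but not the separation. The distance of the library labelled siRPL13 replicate 3 below the siNC mean, as a share of the mean distance of replicates 1 and 2, was 42.2% for INSIG1, 26.6% for SREBF1, 23.9% for SREBF2 and 15.3% for STARD4, while for RPL13 itself it was 4.19%. Among the siNC libraries, replicate 3 was the lowest for SREBF1, SREBF2, INSIG1 and STARD4, at 83.1%, 92.3%, 84.3% and 83.4% of the siNC mean.

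Levels of different genes were compared only after the log2 of the exonic length in kilobases had been subtracted from the rlog, as a level per length and without a test. In siRPL13 the order of these levels was SCAP (9.54), SREBF2 (9.37), INSIG1 (9.11), SREBF1 (8.86), MBTPS1 (8.45), INSIG2 (7.33), MBTPS2 (6.52) and STARD4 (5.91). In siNC it was SREBF1 (10.39), INSIG1 (10.17), SREBF2 (9.85), SCAP (9.48), MBTPS1 (8.55), INSIG2 (7.35), STARD4 (6.58) and MBTPS2 (6.55). On these means over 3 libraries, SREBF1 had the highest level per length in siNC and the fourth highest in siRPL13. Its rank differed between siRPL13 libraries, where its rlog was 11.22, 11.51 and 12.86 in replicates 1 to 3. In the library labelled siRPL13 replicate 3 alone it was the highest, as in the siNC mean. Neighbours that did not differ beyond their SD were SREBF1 and INSIG1 in siNC, as well as STARD4 and MBTPS2 there. In siRPL13 the SD of SREBF1 (0.87), INSIG1 (0.44) or SREBF2 (0.29) exceeded each gap between neighbours in the run SCAP, SREBF2, INSIG1, SREBF1 and MBTPS1, so no neighbours in that run differed beyond their spread, although SCAP and MBTPS1 at its ends lay farther apart than their SD (0.06 and 0.05).

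The genes whose values over the 6 libraries were most like those of the 4 changing genes were sought among all genes tested, by the root mean square (RMS) difference over the 6 libraries after each gene was centred on its siNC mean. Among the 3 nearest to SREBF1 were SCD, which encodes stearoyl-CoA desaturase (RMS 0.338), and FADS2, a desaturase of polyunsaturated fatty acids (0.5). Nearest to SREBF2 were DHCR7, the last enzyme of a branch of cholesterol synthesis (0.0361), FASN, fatty acid synthase (0.0463), and SLC2A10, a sugar transporter (0.0476). Among the 3 nearest to INSIG1 were FADS2 (0.0881) and the long noncoding RNA OLMALINC (0.22). Nearest to STARD4 were ABCA1, the cholesterol exporter (0.0893), ERFE, the hormone erythroferrone (0.146), and OLMALINC (0.156). SCD, FADS2, DHCR7 and FASN are also in the lists of SREBP targets described next, so their likeness and the list counts rest on the same values. Within the set, INSIG1 was nearer to STARD4 (0.285) than to SREBF1 (0.446), SREBF2 (0.432) or INSIG2 (0.801).

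**Figure D3:**
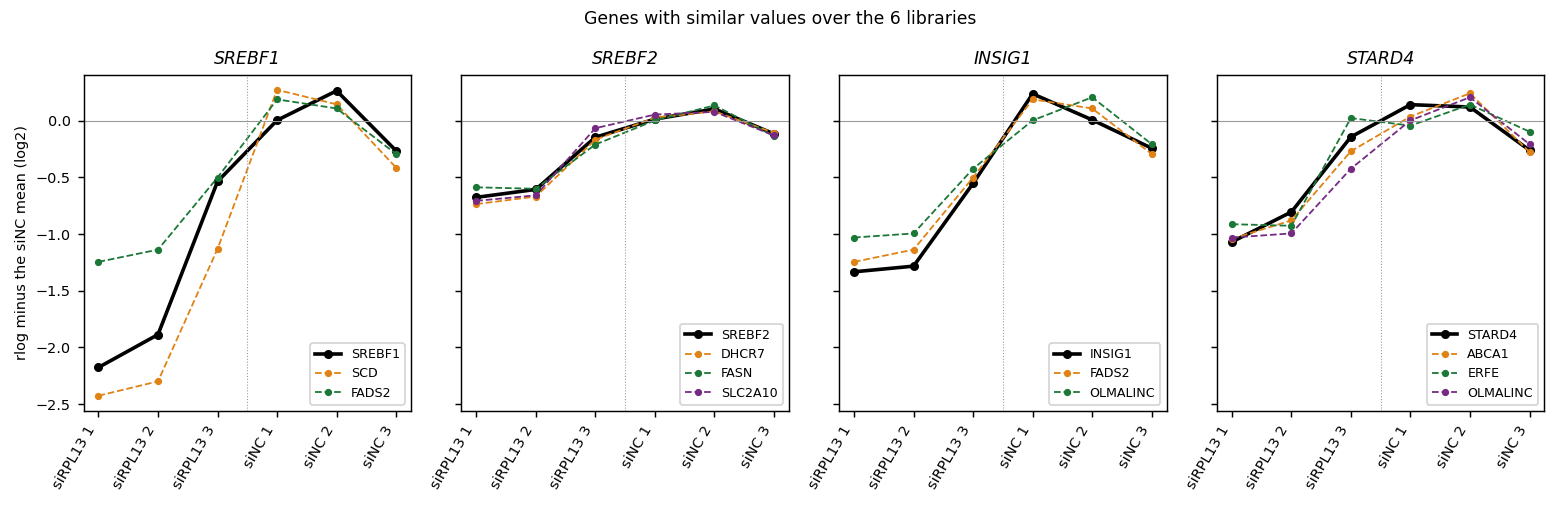
Rlog minus the siNC mean of the same gene (vertical axis, log2) in the 6 libraries (horizontal axis, siRPL13 then siNC), for SREBF1, SREBF2, INSIG1 and STARD4 in black and the genes named in the text as like each of them in colour; lines only join the values of 1 gene. Without the library labelled siRPL13 replicate 3, the log2 difference was -2.36 for SCD and -1.19 for FADS2, on either side of SREBF1 at -2.03.

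In 10 lists of related genes no gene passed with all 6 libraries. The counts below are those without the library labelled siRPL13 replicate 3. Over all genes tested in that fit, 10.7% were lower and 8.42% higher. Of 21 tested targets of SREBP in sterol synthesis and uptake, 16 fell and 0 rose, with a median log2 difference of -0.36. DHCR7 had 11.36, 11.42 and 11.92 in siRPL13 replicates 1 to 3, against 12.12, 12.17 and 11.98 in siNC, and fell by 0.70 ± 0.06 (SE, adjusted p 0.00016 by limma). All siRPL13 libraries lay below the siNC libraries for this gene. CYP51A1, the lanosterol demethylase, had a log2 difference of 0.01 ± 0.08 (adjusted p 0.958 by limma) and was named after its values had been seen.

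Of 14 tested targets in fatty acid metabolism, 10 fell and 1 rose, with a median of -0.33. SCD had 11.44, 11.57 and 12.74 in siRPL13 replicates 1 to 3, against 14.14, 14.01 and 13.45 in siNC, so that the siRPL13 libraries all lay below the siNC libraries. FADS2 fell by 1.19 ± 0.11 and FADS1, the other front-end desaturase, fell by 0.75 ± 0.07 (SE). GPAM, the first enzyme of glycerolipid synthesis, rose by 0.40 ± 0.08 (adjusted p 0.00905 by limma). In the library labelled siRPL13 replicate 3, GPAM stood at 9.312, lower than in all siNC libraries. The median deviation from the siNC mean over the sterol list was -0.39, -0.35 and -0.15 in siRPL13 replicates 1 to 3, against 0.08, -0.02 and -0.06 in siNC. For the fatty acid list it was -0.31, -0.40 and -0.19 in siRPL13, against 0.12, 0.03 and -0.11 in siNC. In both lists the library labelled siRPL13 replicate 3 was the lowest after siRPL13 replicates 1 and 2, and the groups did not overlap.

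**Figure D4:**
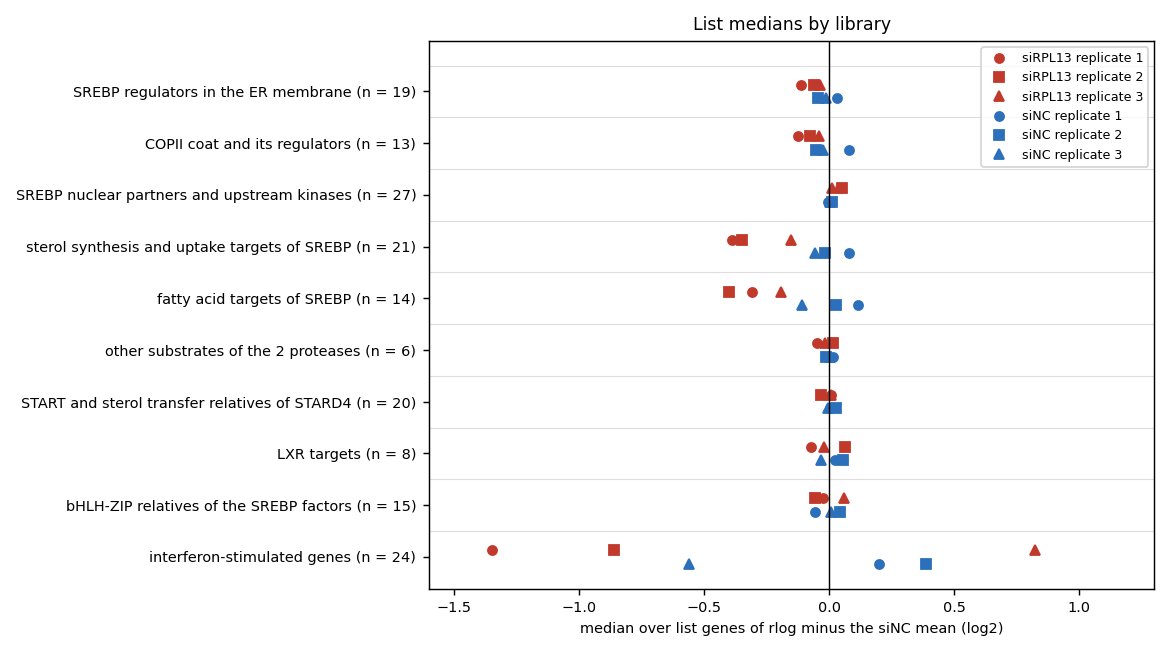
Median over the tested genes of 10 lists of the rlog minus the siNC mean (horizontal axis, log2), with 1 point per library, siRPL13 in red above siNC in blue, the shape giving the replicate number. The sterol and fatty acid targets of SREBP lie between -0.40 and -0.15 in siRPL13, and interferon-stimulated genes spread from -1.35 in siRPL13 replicate 1 to 0.82 in the library labelled siRPL13 replicate 3.

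Genes that act on the factors before cleavage had medians nearer to 0. Of 19 tested regulators listed for the endoplasmic reticulum membrane, 4 fell and 2 rose, with a median log2 difference of -0.08. Not all of them are proteins of that membrane. VCP, the ATPase that extracts proteins for degradation, fell by 0.45 ± 0.05 and its cofactor NPLOC4 by 0.28 ± 0.05 (SE). ERLIN1 fell as well, while AUP1 rose by 0.29 ± 0.05 and the conjugating enzyme UBE2J2 rose by 0.16 ± 0.05. Several of these act on many substrates beyond the SREBP system. Of 13 genes of the COPII coat, which carries SCAP and its cargo out of the endoplasmic reticulum, 3 fell and 0 rose, namely TFG by 0.33 ± 0.05, SEC24D by 0.29 ± 0.09 and SEC24C by 0.19 ± 0.05. These shares, 4 of 19 and 3 of 13, stand beside a background of 10.7% lower. In the library labelled siRPL13 replicate 3, NPLOC4 (13.32) and SEC24C (13.04) were higher than in all siNC libraries.

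Among 27 tested nuclear partners and upstream kinases, 1 fell and 4 rose, with a median of 0.05. LPIN1, which is itself an SREBP target, fell by 0.39 ± 0.09 (SE), whereas GSK3B, the kinase that marks nuclear SREBP for degradation, rose by 0.29 ± 0.05, the coactivator CREBBP by 0.21 ± 0.05 and CREB1 by 0.19 ± 0.06. GSK3B stood at 11.32, 11.31 and 10.81 in siRPL13 replicates 1 to 3, against a mean of 11.03 ± 0.05 in siNC (SD, n = 3), so that siRPL13 replicates 1 and 2 were higher than all siNC libraries and the library labelled siRPL13 replicate 3 was lower than all of them. Of 6 tested other substrates of the proteases, CREB3L2 fell by 0.20 ± 0.05 and CREB3 rose by 0.26 ± 0.05, and 4 did not pass, with a median of -0.02. Of 15 tested bHLH-ZIP relatives of the SREBP factors, 2 fell and 1 rose, with a median of -0.06. MITF rose by 0.39 ± 0.05, and MXD3 and USF1 fell by 0.33 ± 0.09 and 0.17 ± 0.05. In the library labelled siRPL13 replicate 3, MITF (11.06) was lower and USF1 (10.69) higher than in all siNC libraries. The counts in this paragraph stand beside 10.7% lower and 8.42% higher over all genes tested.

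Of 20 tested relatives of STARD4 in sterol and lipid transfer, 4 fell and 2 rose, with a median of -0.01 (0.02 with all 6 libraries). STARD8 fell by 0.50 ± 0.08, OSBPL5 by 0.40 ± 0.07 and NPC2, a lysosomal sterol carrier, by 0.37 ± 0.05 (SE), while STARD10 rose by 0.38 ± 0.08 and SOAT1, which esterifies cholesterol, by 0.19 ± 0.06. OSBPL5 stood at 8.749 in the library labelled siRPL13 replicate 3, higher than in all siNC libraries. Of 8 tested targets of the sterol receptor LXR, which also drives SREBF1 transcription, 3 fell and 1 rose, with a median of 0.01 (-0.0058 with all 6 libraries). ABCA1 had 8.35, 8.51 and 9.12 in siRPL13 replicates 1 to 3, against 9.42, 9.63 and 9.11 in siNC, and fell by 0.96 ± 0.12 (adjusted p 0.00098 by limma). MYLIP, a ubiquitin ligase, fell by 0.65 ± 0.07 and LPCAT3, a lysophospholipid acyltransferase, by 0.35 ± 0.06. The counts of both lists stand beside 10.7% lower and 8.42% higher over all genes tested.

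Interferon-stimulated genes varied between libraries within both groups, and their values stand here because siNC replicate 3 was the lowest siNC library for them and for SREBF1, SREBF2, INSIG1 and STARD4. Of 24 tested, 23 fell and 0 rose without the library labelled siRPL13 replicate 3, OAS2, MX2 and IFITM1 by 1.70 ± 0.32, 1.69 ± 0.28 and 1.66 ± 0.36 (SE). Their median deviation from the siNC mean was -1.35, -0.86 and 0.82 in siRPL13 replicates 1 to 3, against 0.20, 0.39 and -0.56 in siNC. That of the library labelled siRPL13 replicate 3 was above every siNC library, while its SREBF1, SREBF2 and INSIG1 levels were lower than in every siNC library. The part of this variation in the results on the SREBP genes was not tested.

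Genes whose annotated spans overlap the 8 genes are given because the sources used here do not say whether reads were counted by strand. SREBF2-AS1, which overlaps the start of SREBF2 by 1587 bases on the other strand, had 7.02, 6.80 and 6.94 in siRPL13 replicates 1 to 3, against 7.09, 6.98 and 7.07 in siNC (log2 difference without the library labelled siRPL13 replicate 3 -0.14 ± 0.09, adjusted p 0.294 by limma). STARD4-AS1, which overlaps STARD4 by 365 bases, had 6.09, 6.01 and 6.19 in siRPL13, against 6.08, 5.97 and 5.99 in siNC (0.04 ± 0.07, adjusted p 0.739). RAI1, which overlaps the end of SREBF1 by 1055 bases, had 11.38, 11.31 and 11.63 in siRPL13, against 11.38, 11.56 and 11.45 in siNC (-0.12 ± 0.06, adjusted p 0.193). YY2, within MBTPS2, lay between 4.66 and 4.89 in all 6 libraries. None of these 4 passed the test. Without strand, reads of SREBF2-AS1, STARD4-AS1 and RAI1 cannot be told apart from those of the overlapping gene in the shared bases. YY2 lies on the same strand as MBTPS2, so strand would not separate their reads there.

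SREBF1 and SREBF2 also host the microRNAs miR-33b and miR-33a, known as regulators of cholesterol export. MIR33B (GRCh38 chromosome 17, hairpin 17813836 to 17813931, minus strand) was listed at -0.04 in each siRPL13 library and between -0.03 and -0.01 in siNC, the bottom of the scale, so nothing is read from it, and MIR33A was not analysed here. Their mature 5p sequences, from RefSeq on GRCh38.p14, are given because they share a seed (bases 2 to 8, in capitals).
hsa-miR-33b-5p: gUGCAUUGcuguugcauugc
hsa-miR-33a-5p: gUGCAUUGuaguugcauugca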

How the data were processed

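Total RNA of 6 cultures was sequenced, 3 per group; per the labels' protocols, libraries came from 1.5 µg of RNA and a NEBNext Ultra kit, and each culture received 2.5 µL of siRNA at 20 µM. The deposited table holds log2 values that its name calls rlog. Tools in the submitters' processing notes are DESeq2, HTSeq 0.6.1p1, TopHat and Trimmomatic 0.33, and the build GRCh38.p7, without roles or settings. Depth per library is unknown, and the median rlog of genes tested was 9.12 to 9.13.

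Symbols came from a table of current names (20499 of 21429 identifiers) and GENCODE 29, which gave positions (20608); 821 were in neither. The 15327 genes whose mean rlog reached 3 were tested, two-sided, by limma 3.58.1 (with trend) in R 4.3.3; p-values were adjusted over them after Benjamini and Hochberg, with 0.05 as the threshold. No count model was used. Exact permutation tests used scipy 1.17.1. The limma fits were checked on simulated data with the spread of the 5 libraries without the library labelled siRPL13 replicate 3. That check does not cover the wider spread of all 6 libraries. The permutation test was checked only on made-up separated values. The members, lists and the fit without the library labelled siRPL13 replicate 3 were chosen with earlier results of these data known. The labels call the 3 samples of a group biological replicates but do not say how their cultures were separated. The spread behind a p-value may therefore be technical. Named genes were the 8 members, RPL13, up to 3 per list and direction with the largest called differences and no overlap, the 3 genes most like each member with a range of at least 0.5, and overlapping genes; markers and ERLIN1 are named besides, and some genes that this rule names are not reported here. No pair of libraries shared a value (0 identical). Figures used matplotlib 3.10.9.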

Additional observations from a re-analysis of the deposited data

How the results depend on the processing

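With all 6 libraries, the count of genes past the threshold stayed at 0 under the other filters, scalings and variance models. It became 5309 with limma's library weights. These gave siRPL13 replicates 1 and 2 weights of 0.992 and 7.19 and the library labelled siRPL13 replicate 3 a weight of 0.163. Among the siRPL13 libraries, that fit thus rests largely on replicate 2. In it, 5 of the 8 genes passed, the added one being MBTPS1 (-0.11). MBTPS1 also passed with weights without the library labelled siRPL13 replicate 3 (-0.14). Leaving out each library in turn gave 0 to 2933 genes and 0 to 4 of the 8 genes, and only leaving out that library gave any. Without it, leaving out a further library gave 243 to 3748 genes, the lowest without siRPL13 replicate 1, and 943 without siRPL13 replicate 2. In both of those fits 1 siRPL13 library remained, which is assumed to vary like the others. SREBF1, SREBF2, INSIG1 and STARD4 passed in all 12 alternatives without the library labelled siRPL13 replicate 3 and in 2 of 14 with all 6 as the starting point, with the same direction in all.

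Small differences changed sign. With library weights INSIG2 stood at 0.0448 and MBTPS2 at 0.0616. Over the leave-one-out fits of all 6 libraries INSIG2 ranged from -0.0633 to 0.0147 and MBTPS2 from -0.0904 to 0.0443; without the library labelled siRPL13 replicate 3 the ranges were -0.0356 to 0.065 for INSIG2, -0.0412 to 0.0935 for MBTPS2 and -0.00303 to 0.073 for SCAP.

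A fit with the replicate block gave 0 genes and 0 of the 8. The numbers were not taken to pair the libraries: deviations of same-numbered libraries correlated at 0.08, -0.43 and -0.33 over genes, and no library correlated best with its own number. Depth is unknown, and 3 libraries per group limit the precision.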
